A study of Homo sapiens with 12 samples.

Results

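Entinostat inhibits class I histone deacetylases, the enzymes that remove acetyl groups from histones, and the transcripts of the TGF-beta and BMP pathway were followed here in medulloblastoma cells that had received it. The genes described are 42 ligands, receptors, SMADs and modulators of this pathway, chosen by name with earlier results of these data known. A probe set of the array was counted to a gene when its only annotated symbol was the current or a former name of that gene. With this rule 41 of the 42 genes had a probe set, and BMPR1A was not analysed here. They held 120 of the 54613 probe sets tested, and 41 of the 19775 genes measured. The cells were HD-MB03, an established line of group 3 medulloblastoma with an amplified MYC gene, grown in RPMI medium with fetal calf serum. All 12 arrays came from this single line, and they formed 4 groups of 3 biological replicates. The groups were 1 µM entinostat for 24 h, 1 µM entinostat for 48 h, and the solvent DMSO alone for 24 h and for 48 h. The serum was common to all groups, the labels name no added TGF-beta or BMP ligand, and the DMSO cultures are also labelled untreated.

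Ligands of the TGF-beta family are secreted proteins that bring together type I and type II receptor kinases on the cell surface. TGF-beta and activin receptors phosphorylate SMAD2 and SMAD3, whereas most BMP receptors phosphorylate SMAD1, SMAD5 and SMAD9 (also called SMAD8). Either set joins SMAD4, enters the nucleus and binds regulatory DNA together with other factors. The pathway is held in check outside the cell by antagonists and latency proteins, at the membrane by decoy receptors, and inside the cell by SMAD6, SMAD7, SKI and SKIL. In the developing cerebellum BMPs are known to restrain the proliferation of granule neuron progenitors. The arrays measured mRNA, and neither ligand protein nor SMAD phosphorylation was measured in these data.

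The arrays were alike in level, with medians of the linear intensity between 80.6 and 81.8. The lowest intensity was 36.7, and such a background within every value shrinks the fold changes of dim genes. Of 7 markers of group 3 medulloblastoma, 5 had a mean log2 of at least 7, among them MYC with 13.53 and OTX2 with 12.65, while CRX with 6.78 and NPR3 with 6.19 were under this level. All 13 measured markers of fibroblasts, endothelial cells, blood cells and astrocytes, of 14 listed, had a mean log2 under 7. The summed intensity of the 7 group 3 markers was lower in entinostat. It was 18434 to 19786 against 21631 to 24542 in DMSO at 24 h, and 22219.6 to 22757 against 24335 to 25952 at 48 h. In log2 units IMPG2 (-2.02 and -1.52) and GABRA5 (-1.78 and -2.12) fell at both times. OTX2 had -0.22 (adjusted p = 0.0312 by limma) and -0.08 (adjusted p = 0.457). CRX had -0.21 (adjusted p = 0.324 by limma) and -0.44 (adjusted p = 0.0324). MYC had 0.04 at 24 h and rose by 0.17 at 48 h (adjusted p = 0.0163 by limma). NRL (-0.36 and -0.77) and NPR3 (-0.02 and -0.10) passed at neither time. The summed intensity of the 5 fibroblast markers was 362 to 392 in DMSO and 364 to 383 in entinostat, over both times. That of the 3 endothelial markers was 197 to 216 in DMSO and 216 to 223 in entinostat at 24 h, and 199 to 208 and 207 to 222 at 48 h. As a sign of RNA quality, the ACTB signal at the 3′ end minus that at the 5′ end, in log2, was lower in entinostat (-0.16 to -0.12) than in DMSO (-0.10 to -0.03) at 48 h. For GAPDH it was -0.12 to -0.03 in entinostat and -0.12 to -0.11 in DMSO at 48 h, which overlapped. The part of these values in the results was not tested.

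Transcripts of both arms of the pathway changed under entinostat, in both directions. The decoy receptor BAMBI, the co-receptor TGFBR3, the ligands BMP2 and BMP6, the receptor TGFBR2 and the latency protein LTBP1 rose at both times. The BMP receptor BMPR1B, the type I receptor TGFBR1 and the signal transducers SMAD1, SMAD3 and SMAD4 fell at both times. SMAD2 and SMAD5 rose at both times, and SMAD9 rose at 48 h. In these bulk samples, fewer cells that express a gene and less of its RNA per cell cannot be told apart.

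By limma, with Benjamini-Hochberg adjustment over all probe sets and a threshold of 0.05, 15 of the 41 genes were higher and 8 lower in entinostat at 24 h, together 56.1%. Among all genes 18.2% were higher and 15% lower, together 33.2%. At 48 h there were again 15 higher and 8 lower (56.1%), beside 17.3% and 16.6%, or 34%, of all genes. Brighter probe sets passed more often. Of the 19 pathway genes whose mean log2 was at least 8, 13 passed at 24 h and 14 at 48 h, where 54.3% and 56.5% of all genes this bright passed. Of the 22 dimmer ones 10 and 9 passed, beside 22.9% and 23% of all dimmer genes. The median log2 fold change of the pathway genes was 0.11 at 24 h and 0.13 at 48 h, against -0.02 over all genes at both times. The median of its absolute value was 0.33 and 0.39, against 0.14 and 0.13 over all genes.

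The calls at both times were largely of the same genes. In all, 13 genes were higher and 7 lower at both times, 15 passed at neither, and no gene was called in opposite directions. LTBP2 and LTBP4 were higher and NOG lower at 24 h alone, while SMAD9 and BMPR2 were higher and LTBP3 lower at 48 h alone. For the 23 genes called at 24 h, the 3 entinostat arrays lay outside the range of the 3 DMSO arrays in every case except LTBP2, and the same was true of all 23 genes called at 48 h. Among all called genes this held for 98.4% at 24 h and 98.5% at 48 h.

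**Figure D1:**
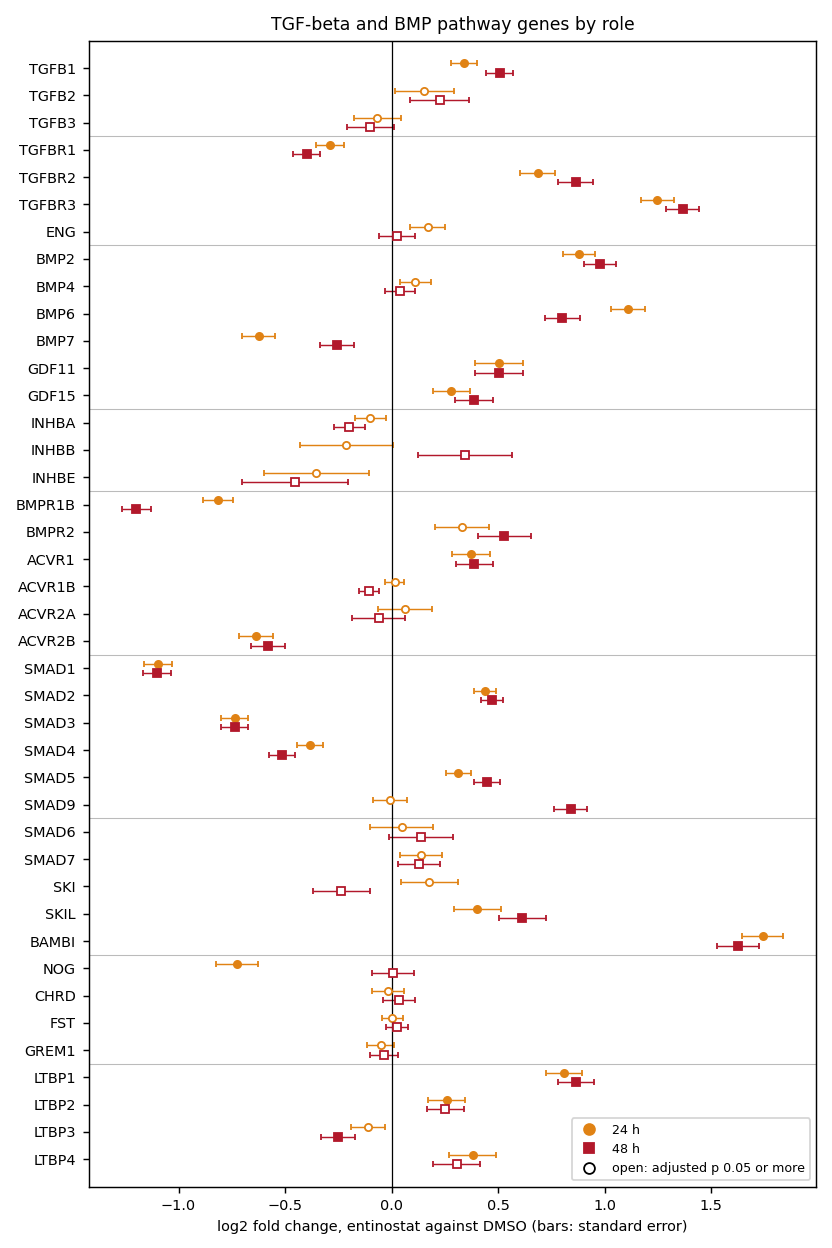
Log2 fold change of entinostat against DMSO (x axis) for the 41 measured pathway genes, ordered by role, at 24 h and at 48 h. Points are limma estimates from 3 arrays against 3, bars are standard errors, and filled points passed the adjusted p of 0.05. BAMBI lies farthest to the right with 1.74 and 1.63, and BMPR1B (-1.20 at 48 h) and SMAD1 (-1.10 at both times) farthest to the left.

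Among the inhibitory regulators, BAMBI and SKIL rose at both times. BAMBI, a membrane protein that resembles a type I receptor without a kinase and blocks signalling, had intensities of 105, 102 and 93.5 in the 3 DMSO arrays and 373, 339.6 and 295 in the 3 entinostat arrays at 24 h. At 48 h they were 106, 90.0 and 87.6 in DMSO and 302, 306 and 267 in entinostat. The lowest entinostat array was thus far above the highest DMSO array at both times. This was a 3.34-fold rise at 24 h, or 1.74 on the log2 scale (standard error 0.10, adjusted p = 9.49e-08 by limma), and a 3.09-fold rise at 48 h, or 1.63 (standard error 0.10, adjusted p = 1.4e-07). BAMBI had the largest fold change of the 41 genes, and this probe set was its only one.

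SKIL, a nuclear repressor of SMAD complexes, rose by 0.40 on the log2 scale at 24 h and 0.61 at 48 h, and the call at 24 h was lost without DMSO replicate 1 or entinostat replicate 2 of that time. Of the 5 probe sets of SKIL, 1 rose at 24 h and 2 at 48 h, and the others did not pass. Its close relative SKI had 0.18 (adjusted p = 0.41 by limma) and -0.24 (adjusted p = 0.253). The inhibitory SMADs, which compete for receptors and are themselves targets of the pathway, did not pass. SMAD7 had 0.14 at 24 h (adjusted p = 0.374 by limma) and 0.13 at 48 h (adjusted p = 0.414). For SMAD6 the brightest probe set gave 0.05 and 0.14, but 1 of its 3 dimmer ones passed with 0.30 at 24 h and 0.21 at 48 h.

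The TGF-beta receptors diverged, with TGFBR2 and TGFBR3 higher and TGFBR1 lower. TGFBR3, the proteoglycan betaglycan that presents TGF-beta to its receptor, had 323, 265 and 263 in DMSO and 686, 676 and 649 in entinostat at 24 h, on the linear intensity scale. At 48 h the arrays gave 279, 252 and 264 in DMSO and 711, 657 and 683 in entinostat. The groups did not overlap, and every entinostat array was above every DMSO array. The group means were 283 ± 34.0 and 670.5 ± 19.0 at 24 h, and 265 ± 13.6 and 684 ± 27.2 at 48 h (SD, n = 3 each). In log2 units TGFBR3 rose by 1.25 (standard error 0.08, adjusted p = 2.09e-07 by limma) and 1.37 (standard error 0.08, adjusted p = 8.93e-08), or 2.38-fold and 2.58-fold.

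TGFBR2, the type II receptor kinase that binds TGF-beta first, was dim in DMSO, with intensities of 73.5, 76.8 and 63.7 at 24 h and 68.7, 59.4 and 57.2 at 48 h. In entinostat they were 118, 118 and 108 at 24 h and 115, 112 and 109.9 at 48 h, again above every DMSO array. The log2 fold change was 0.69 (standard error 0.08, adjusted p = 4.72e-05 by limma) and 0.87 (standard error 0.08, adjusted p = 5.97e-06). With 30 subtracted from every intensity, as a lower background, it was 1.04 and 1.39. A dimmer probe set of TGFBR2 had 0.03 and 0.01 and did not pass.

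TGFBR1, the type I kinase that phosphorylates SMAD2 and SMAD3, had 2839, 2963 and 2798 in DMSO and 2575, 2287 and 2195 in entinostat at 24 h. At 48 h it had 2875, 2732 and 2912 in DMSO and 2253, 2059 and 2151 in entinostat. All entinostat arrays lay below all DMSO arrays of their time. The log2 fold change was -0.29 (standard error 0.06, adjusted p = 0.00518 by limma) and -0.40 (standard error 0.06, adjusted p = 0.000484). Without the probe sets whose name ends in _x_at or _s_at, which can bind more than 1 transcript, its value at 24 h was -0.06 and did not pass. ENG, the co-receptor endoglin of endothelial cells, had 0.17 (adjusted p = 0.175 by limma) and 0.03 (adjusted p = 0.879).

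Of the 3 TGF-beta ligands, TGFB1 rose. Its intensities were 91.6, 99.6 and 90.8 in DMSO and 124, 115 and 117 in entinostat at 24 h, and 91.0, 93.0 and 90.1 in DMSO and 137, 120.1 and 133.4 in entinostat at 48 h. The groups did not overlap, and the log2 fold change was 0.34 (adjusted p = 0.00119 by limma) and 0.51 (adjusted p = 4.72e-05). The other probe set of TGFB1 had -0.01 and 0.10 and did not pass. TGFB2 had 0.15 and 0.23 and TGFB3 -0.07 and -0.10, with adjusted p between 0.292 and 0.733.

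LTBP1 and some other latent TGF-beta binding proteins tether the inactive ligand to the extracellular matrix, and LTBP1 changed most among the genes of this name. LTBP1 had 79.3, 75.9 and 75.1 in DMSO and 137, 149 and 119 in entinostat at 24 h, and 79.2, 71.9 and 79.0 in DMSO and 127, 150.1 and 143 in entinostat at 48 h. Every entinostat array was above every DMSO array. On the log2 scale LTBP1 rose by 0.81 (standard error 0.08, adjusted p = 1.5e-05 by limma) at 24 h and 0.87 (standard error 0.08, adjusted p = 7.34e-06) at 48 h, and its other probe set also rose. LTBP2 rose at 24 h (0.26, adjusted p = 0.0484 by limma) and had 0.25 at 48 h (adjusted p = 0.0521), and its call at 24 h was lost in 11 of 12 fits that each left out 1 array. LTBP4 likewise rose at 24 h (0.38) and had 0.31 at 48 h (adjusted p = 0.0645 by limma), and its call was lost in 3 of these fits. LTBP3 fell at 48 h, with a log2 fold change of -0.25 (adjusted p = 0.0331 by limma), a call lost in 5 of them.

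Of the 6 BMP and GDF ligands, BMP2, BMP6, GDF11 and GDF15 rose and BMP7 fell at both times. BMP6, a ligand of the type I receptor ACVR1, had 91.0, 93.1 and 76.8 in DMSO and 194, 193 and 174 in entinostat at 24 h. At 48 h it had 84.6, 82.8 and 95.5 in DMSO and 154, 155 and 149 in entinostat. The entinostat arrays of 24 h were the highest, those of 48 h were lower, and both lay above all DMSO arrays. In log2 units BMP6 rose by 1.11 (standard error 0.08, adjusted p = 7.68e-07 by limma), or 2.16-fold, at 24 h and 0.80 (standard error 0.08, adjusted p = 9.8e-06), or 1.74-fold, at 48 h. Its 2 dimmer probe sets had values from -0.10 to 0.03 and did not pass.

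BMP2, an inducer of bone and of neural crest and dorsal neural fates, had 71.7, 72.4 and 67.3 in DMSO and 118, 144 and 128 in entinostat at 24 h. At 48 h the arrays gave 67.6, 66.8 and 75.5 in DMSO and 135, 137 and 141 in entinostat. The 6 DMSO arrays lay close together at a dim level, and all 6 entinostat arrays stood above them. The mean log2 of BMP2 was 6.60, under the level of 7 used for the markers. BMP6 with 6.92, LTBP1 with 6.68 and TGFB1 with 6.75 were also under it. BMP2 thus rose on the log2 scale by 0.88 (standard error 0.08, adjusted p = 2.86e-06 by limma) and 0.98 (standard error 0.08, adjusted p = 1.05e-06). Its other probe set also rose, by 0.90 and 0.57, a smaller change at 48 h. GDF11, a relative of myostatin, rose by 0.50 and 0.51, and GDF15, a stress-induced hormone that acts through another kind of receptor, by 0.28 and 0.39. Of their probe sets, 3 of 5 for GDF11 and 1 of 3 for GDF15 rose at each time, and the others did not pass. The lowest values were -0.28 and -0.22 for GDF11, and -0.02 and 0.05 for GDF15. The call of GDF15 at 24 h was lost in 4 of the 12 fits that each left out 1 array.

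BMP7, a ligand of kidney and eye development, had 726, 685 and 808 in DMSO and 489, 429 and 522 in entinostat at 24 h, and 777, 778 and 805 in DMSO and 679.9, 621 and 676 in entinostat at 48 h. All entinostat arrays were below the DMSO arrays, with a narrower gap at 48 h. The log2 fold change was -0.62 (adjusted p = 7.39e-05 by limma) and -0.26 (adjusted p = 0.0303), and the interaction of 0.37 between treatment and time did not pass (adjusted p = 0.158). The call of BMP7 at 48 h was lost in 5 of the 12 fits that each left out 1 array. Of its 4 probe sets, 3 fell at 24 h and 1 at 48 h. Their values ran from -0.62 to 0.14 at 24 h and from -0.26 to 0.08 at 48 h. BMP4 had 0.11 and 0.04, with adjusted p of 0.319 and 0.771. The activin and inhibin subunits INHBA, INHBB and INHBE had log2 fold changes from -0.45 to 0.35 over both times, and the smallest of their adjusted p by limma was 0.0676.

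**Figure D2:**
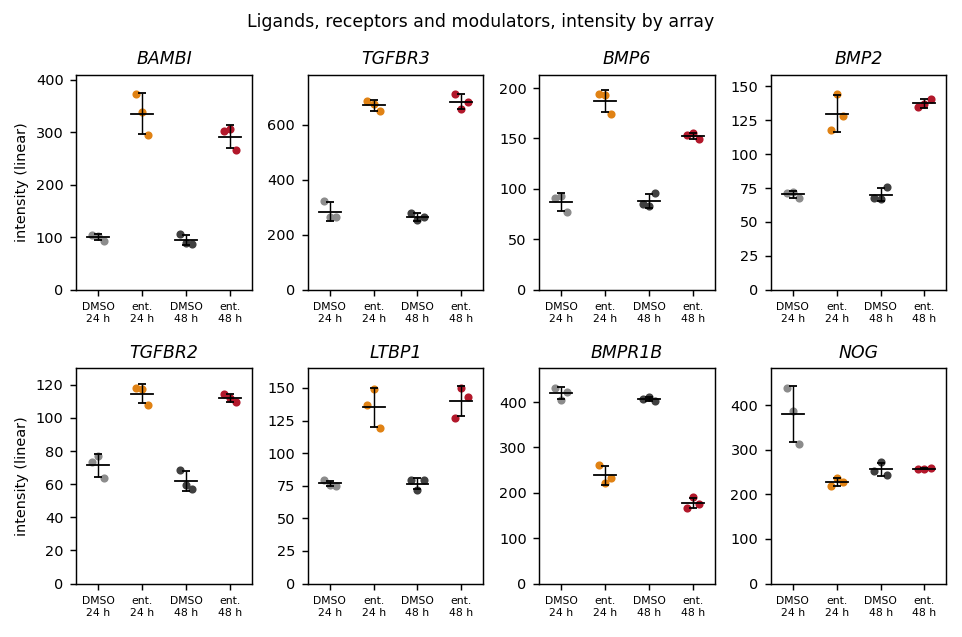
Linear intensity (y axis, from 0) of 8 pathway genes in each of the 12 arrays, by group (x axis), with the mean and SD of 3 arrays. In BAMBI, TGFBR3, BMP6, BMP2, TGFBR2 and LTBP1 the entinostat arrays lie above the DMSO arrays at both times, in BMPR1B below, and in NOG below at 24 h.

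Receptors for BMPs and activins changed in both directions, and BMPR1B fell most. BMPR1B, a type I receptor for BMPs and GDFs, had 431, 405 and 421 in DMSO and 262, 221 and 234 in entinostat at 24 h. At 48 h it had 407, 411 and 402 in DMSO and 167, 190.4 and 176 in entinostat. The DMSO arrays stayed at one level, the entinostat arrays of 24 h were lower, and those of 48 h lower still, without overlap. In log2 units its change was -0.81 (standard error 0.07, adjusted p = 2.41e-06 by limma) at 24 h and -1.20 (standard error 0.07, adjusted p = 9.64e-08) at 48 h. The intensity in entinostat was 0.569 and 0.436 times that in DMSO, and all 3 probe sets of BMPR1B fell at both times. Between the entinostat groups it fell by 0.43 on the log2 scale from 24 h to 48 h (adjusted p = 0.00317 by limma), while the interaction of treatment and time was -0.38 (adjusted p = 0.0846).

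Among the type II receptors, ACVR2B, which binds activins and GDF11, fell. Its arrays gave 436, 484 and 462 in DMSO and 303, 299.6 and 285 in entinostat at 24 h, and 504, 581 and 527 in DMSO and 359, 399.5 and 322 in entinostat at 48 h. The groups of each time did not overlap, with log2 fold changes of -0.64 (adjusted p = 7.09e-05 by limma) and -0.58 (adjusted p = 0.000137), and all 3 probe sets fell at both times. BMPR2, the main type II receptor of the BMPs, had 0.33 at 24 h (adjusted p = 0.0803 by limma) and rose by 0.53 at 48 h (adjusted p = 0.00717). Another of its probe sets passed at 24 h too, with 0.38, and the one used passed at 24 h without DMSO replicate 2 of 24 h or entinostat replicate 3 of 48 h. ACVR2A had 0.06 and -0.06, and its dimmer probe set rose at 24 h by 0.43 (adjusted p = 0.000437 by limma).

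ACVR1, a type I receptor of BMP6 and BMP7, rose by 0.37 and 0.39. ACVR1B, the type I receptor of activin, had 1005, 1009 and 1066 in DMSO and 1023, 1033 and 1053 in entinostat at 24 h, and 1114, 1131 and 1105 in DMSO and 1043, 1057 and 1012 in entinostat at 48 h. Its groups overlapped at 24 h, and at 48 h the entinostat arrays lay below the DMSO arrays. Neither log2 fold change of ACVR1B passed, with 0.01 (adjusted p = 0.876 by limma) and -0.11 (adjusted p = 0.12), and the dimmest of its 6 probe sets gave -0.43 at 24 h (adjusted p = 0.00668).

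The receptor-regulated SMADs changed unequally within each arm. In the BMP arm SMAD1 fell, SMAD5 rose and SMAD9 rose at 48 h, and in the TGF-beta and activin arm SMAD3 fell and SMAD2 rose. SMAD1 had 486, 504 and 498 in DMSO and 225, 222 and 250.5 in entinostat at 24 h, and 442, 474 and 469 in DMSO and 199.6, 219 and 227 in entinostat at 48 h. Every entinostat array was below every DMSO array, by a wide margin. The intensity of SMAD1 in entinostat was 0.468 and 0.466 times that in DMSO, which on the log2 scale is -1.10 (standard error 0.06, adjusted p = 1.4e-07 by limma) at 24 h and -1.10 (standard error 0.06, adjusted p = 1.13e-07) at 48 h. Its other 2 probe sets fell as well, with -1.38 and -0.36 at 24 h.

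SMAD5, which receives the same receptor signal as SMAD1, had 1271, 1283 and 1334 in DMSO and 1570.3, 1654 and 1611 in entinostat at 24 h. At 48 h it had 1495, 1379.8 and 1271 in DMSO and 1859, 1928 and 1863 in entinostat. The entinostat arrays were above the DMSO arrays at both times, and the log2 fold change was 0.31 (standard error 0.06, adjusted p = 0.00172 by limma) and 0.45 (standard error 0.06, adjusted p = 0.000103). All 5 probe sets of SMAD5 passed at 48 h.

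SMAD9, the remaining SMAD of this arm, responded differently at the 2 times. Its intensities at 24 h were 2352, 2145 and 2281 in DMSO and 2502, 1971 and 2305 in entinostat, which overlapped. At 48 h they were 1831, 1924 and 1894 in DMSO and 3396, 3525 and 3201 in entinostat, which did not. The log2 fold change of SMAD9 was -0.01 (standard error 0.08, adjusted p = 0.972 by limma) at 24 h and 0.84 (standard error 0.08, adjusted p = 5.54e-06) at 48 h.

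In the other arm, SMAD3 had 441, 436 and 479.9 in DMSO and 271, 268 and 274 in entinostat at 24 h, and 567, 497 and 519 in DMSO and 308, 306 and 335 in entinostat at 48 h. The groups were well apart, with a log2 fold change of -0.74 at both times (adjusted p = 2.83e-06 and 2.52e-06 by limma), and all 4 probe sets fell. SMAD2, its partner below the same receptors, had 660.4, 672 and 689 in DMSO and 931, 930.4 and 882 in entinostat at 24 h, and 695, 729 and 708 in DMSO and 971, 1038 and 949.8 in entinostat at 48 h. It rose by 0.44 and 0.47, opposite to SMAD3, with no overlap of arrays. SMAD4, the common partner of both arms, went from 843, 818 and 794 in DMSO to 675, 617 and 592 in entinostat at 24 h, and from 893, 802 and 861 in DMSO to 610.1, 588 and 588 in entinostat at 48 h. It thus fell, with log2 fold changes of -0.38 (adjusted p = 0.000441 by limma) and -0.51 (adjusted p = 3.86e-05). Of the 5 probe sets of SMAD4, 2 fell at each time and the others did not pass. Their values ran from -0.38 to 0.19 at 24 h and from -0.51 to -0.18 at 48 h.

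**Figure D3:**
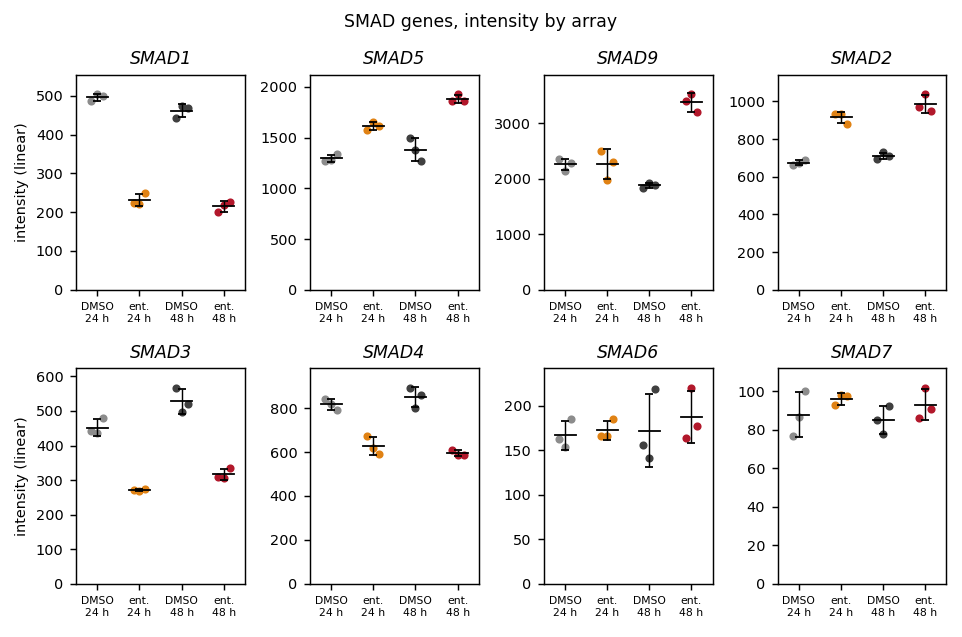
Linear intensity (y axis, from 0) of the 8 SMAD genes in each of the 12 arrays, by group (x axis), with the mean and SD of 3 arrays. SMAD1, SMAD3 and SMAD4 lie lower in entinostat at both times, SMAD2 and SMAD5 higher, and SMAD9 higher at 48 h.

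Of the secreted BMP antagonists, which bind the ligand and keep it from its receptors, NOG was lower in entinostat at 24 h. NOG, or noggin, had 438, 386 and 313 in DMSO and 218, 237 and 227 in entinostat at 24 h. At 48 h it had 253, 271 and 244 in DMSO and 257, 256 and 258 in entinostat. The DMSO arrays of 24 h stood above the others and were widely spread, and at 48 h the groups overlapped. The log2 fold change of NOG was -0.72 (standard error 0.10, adjusted p = 0.000117 by limma) at 24 h and 0.01 (standard error 0.10, adjusted p = 0.974) at 48 h. Between the DMSO groups it fell by 0.55 from 24 h to 48 h (adjusted p = 0.0407 by limma), a call lost in 11 of 12 fits that each left out 1 array and kept without DMSO replicate 3 of 24 h. CHRD, FST and GREM1 had log2 fold changes between -0.05 and 0.03 over both times and did not pass, but 1 of the 2 dimmer probe sets of FST, which binds activins, passed at 24 h with 0.22 (adjusted p = 0.0223 by limma).

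The response to entinostat was compared between 24 h and 48 h through the interaction of treatment and time, which passed for 2 of the 41 genes (4.88%) and for 1.92% of all genes. These were SMAD9, with 0.85 (standard error 0.11, adjusted p = 0.00582 by limma), and NOG, with 0.73 (standard error 0.14, adjusted p = 0.0287). The value of SMAD9 came mainly from a rise in entinostat, where it gained 0.58 on the log2 scale between the times (adjusted p = 0.00117 by limma), beside -0.26 in DMSO (adjusted p = 0.207). Its other probe set gave the same picture, with an interaction of 0.87. The value of NOG came mainly from the fall in DMSO, beside 0.18 in entinostat, and its interaction no longer passed when any single array other than DMSO replicate 1 or 3 of 24 h was left out. Between the entinostat groups BMP7 (0.46), SMAD5 (0.22) and SMAD9 were higher at 48 h, and BMP6 (-0.29) and BMPR1B (-0.43) lower, where 3.96% and 6.34% of all genes passed in these directions. Between the DMSO groups 1 of the 41 genes passed, NOG, whose call was lost without any array other than DMSO replicate 3 of 24 h, and 0.46% of all genes passed.

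The probe sets of a gene did not contradict each other in sign among those called. Over all 120 probe sets, 29 rose and 21 fell at 24 h (41.7%), while 35 rose and 20 fell at 48 h (45.8%), where 25.2% and 26.1% of all probe sets passed. None of the 34 genes with several probe sets had probe sets called in opposite directions. All probe sets passed in the same direction in 7 of them at 24 h and in 9 at 48 h.

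Promoter sequence is shown for 3 genes that rose at both times (BAMBI, TGFBR3, BMP6), 2 that fell (SMAD1, BMPR1B) and SMAD9, which rose at 48 h. Histone deacetylases have no DNA sequence of their own to bind and reach promoters through other factors, and the GC box is a site of the SP family, some members of which are known to recruit them. The sequences are the 250 bases before the annotated start of the gene in RefSeq (GRCh38.p14), 5′ to 3′ on the strand of the gene. Capitals mark the GC box, GGGCGG or its reverse complement CCGCCC. They lie at chr10:28677271-28677520 on the plus strand (BAMBI), chr1:91886152-91886401 on the minus strand (TGFBR3), chr6:7725849-7726098 on the plus strand (BMP6), chr4:145481056-145481305 on the plus strand (SMAD1), chr4:94757705-94757954 on the plus strand (BMPR1B) and chr13:36920239-36920488 on the minus strand (SMAD9).
BAMBI: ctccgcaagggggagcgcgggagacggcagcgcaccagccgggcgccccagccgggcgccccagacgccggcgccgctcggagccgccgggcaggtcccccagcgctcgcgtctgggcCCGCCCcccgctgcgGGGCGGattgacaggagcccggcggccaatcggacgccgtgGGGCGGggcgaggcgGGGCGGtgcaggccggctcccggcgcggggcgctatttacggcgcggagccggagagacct
TGFBR3: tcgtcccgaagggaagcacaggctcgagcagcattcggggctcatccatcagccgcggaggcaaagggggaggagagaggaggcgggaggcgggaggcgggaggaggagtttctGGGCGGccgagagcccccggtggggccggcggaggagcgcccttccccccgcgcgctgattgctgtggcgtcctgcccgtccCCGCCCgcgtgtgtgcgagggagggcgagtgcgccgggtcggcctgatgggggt
BMP6: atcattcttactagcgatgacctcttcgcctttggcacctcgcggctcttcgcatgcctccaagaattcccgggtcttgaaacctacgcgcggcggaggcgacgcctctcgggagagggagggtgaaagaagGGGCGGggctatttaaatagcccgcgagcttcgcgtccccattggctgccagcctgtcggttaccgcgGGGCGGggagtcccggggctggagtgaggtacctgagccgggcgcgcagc
SMAD1: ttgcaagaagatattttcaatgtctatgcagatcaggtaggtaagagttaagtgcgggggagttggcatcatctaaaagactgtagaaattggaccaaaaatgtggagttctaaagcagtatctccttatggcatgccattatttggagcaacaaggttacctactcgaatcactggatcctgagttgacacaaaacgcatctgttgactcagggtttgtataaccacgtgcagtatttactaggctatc
BMPR1B: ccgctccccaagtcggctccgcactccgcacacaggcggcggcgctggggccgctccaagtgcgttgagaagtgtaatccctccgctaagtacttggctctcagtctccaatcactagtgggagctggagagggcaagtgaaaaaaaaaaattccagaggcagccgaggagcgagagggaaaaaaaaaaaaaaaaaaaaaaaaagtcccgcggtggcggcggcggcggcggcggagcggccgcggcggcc
SMAD9: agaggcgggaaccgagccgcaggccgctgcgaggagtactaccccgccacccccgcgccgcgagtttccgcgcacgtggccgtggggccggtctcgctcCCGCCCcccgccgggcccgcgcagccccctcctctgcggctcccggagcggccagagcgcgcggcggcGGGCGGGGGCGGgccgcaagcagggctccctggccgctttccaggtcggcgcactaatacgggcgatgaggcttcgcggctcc

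The promoter of BAMBI held 4 GC boxes, that of SMAD9 held 3, and those of TGFBR3 and BMP6 held 2 each. SMAD1 and BMPR1B had no such letters in this window. The share of G and C was 81.2% in BAMBI, 78.4% in SMAD9, 73.6% in TGFBR3, 64.4% in BMP6, 60.0% in BMPR1B and 41.2% in SMAD1. Of the genes with a promoter at hand, 10 of 12 that rose at both times, 3 of 6 that fell at both times and 7 of 13 that passed at neither held a GC box. TGFBR2 and LTBP1, which rose, had no GC box in the window, whereas SMAD3 and ACVR2B, which fell, had 4 and 5. A promoter was at hand for 37 of the 42 genes, and 25 of the 37 held a GC box, beside 42.3% of 27305 promoters of the same length. The median share of G and C was 68.8% in the 37 and 58.0% in all. The SMAD box CAGAC (or GTCTG) was in 13 of the 37 and in 37.8% of all promoters, and the GC-rich element GGCGCC of BMP-responsive genes in 13 and 16.1%. BAMBI held 2 and 3 of these, and no motif overlapped another in the 6 sequences. Such matches are of letters, and binding of SMADs or SP factors was not measured.

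Genes of the pathway outside these 42 were read from 4 further lists, each beside the 18.2% of all genes that were higher and the 15% that were lower at 24 h, and the 17.3% and 16.6% at 48 h. Of 18 other ligands, 1 was lower at 24 h and 2 were lower at 48 h, and the rest did not pass. INHBC, a liver activin subunit, fell at both times with -0.38 and -0.29, and BMP1, in spite of its name a procollagen and chordin protease, had -0.33 at 48 h. Of 14 other receptors and co-receptors, 6 were higher, 2 lower and 6 did not pass at each time, beside 33.2% and 34% of all genes called in either direction. ACVR1C, a type I receptor of nodal and activin, rose by 0.91 and 0.83, RGMA, a BMP co-receptor, by 0.80 and 0.37, and ITGAV, an integrin chain that activates latent TGF-beta, by 0.65 and 0.94. CD109, a co-receptor that inhibits TGF-beta signalling, fell with -0.80 and -0.94, and NRROS, which anchors latent TGF-beta on microglia, with -0.31 and -0.39. No other probe set of INHBC, BMP1, RGMA or CD109 passed at either time.

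Of 20 extracellular modulators, 7 rose and 2 fell at 24 h, while 4 rose and 2 fell at 48 h, where 33.2% and 34% of all genes were called. THBS1, thrombospondin 1, which can activate latent TGF-beta, had 89.6, 93.9 and 61.8 in DMSO and 611, 522 and 397 in entinostat at 24 h, and 69.4, 67.4 and 54.9 in DMSO and 341, 479 and 352 in entinostat at 48 h. It rose without overlap of arrays, with log2 fold changes of 2.64 and 2.60 (adjusted p = 7.31e-07 and 7.19e-07 by limma). Dimmer probe sets of THBS1 either rose as well or had values from -0.06 to 0.06 and did not pass. FBN1, the fibrillin to which LTBPs bind, rose by 1.18 and 1.02, and TLL2, a protease of the chordin-cleaving family, by 1.19 and 0.69. No other probe set of TLL2 passed. FBN2, another fibrillin, rose at 48 h by 0.84. HTRA1, a secreted protease, fell with -0.59 and -0.97, and TWSG1, a chordin-binding regulator of BMPs, with -0.28 and -0.33.

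Of 27 intracellular regulators, 5 rose and 8 fell at 24 h, while 3 rose and 8 fell at 48 h, again beside 33.2% and 34% of all genes. The ubiquitin ligase WWP1 rose by 0.47 and 0.53, the deubiquitinase USP9X by 0.39 and 0.43, and STRAP, a partner of SMAD7, by 0.30 and 0.41. NEDD4L, a ubiquitin ligase of activated SMAD2 and SMAD3, was higher at 24 h (0.47, adjusted p = 0.0389 by limma), with overlapping arrays. At 48 h it was lower than in DMSO (-0.46, adjusted p = 0.0416 by limma). From 24 h to 48 h NEDD4L rose by 1.28 in DMSO (adjusted p = 0.0103 by limma) and had 0.34 in entinostat (adjusted p = 0.241). Its interaction of treatment and time was -0.94 and did not pass (adjusted p = 0.0623 by limma). None of its other probe sets passed at 48 h. SMURF2, another ligase of SMADs and receptors, rose at 24 h by 0.21, while its other probe sets had 0.09 to 0.12 and did not pass. PMEPA1, which keeps SMAD2 and SMAD3 from their receptors, fell with -0.53 and -0.58, and ZEB1, a repressor of epithelial genes, with -0.27 and -0.56. BMP1, FBN2, STRAP and SMURF2 were named after their values had been seen, so that each small count is accounted for.

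Known target genes of the 2 arms were read in the same way, from lists also chosen with earlier results of these data known. Of 15 BMP targets outside the 42 genes, 9 rose and 2 fell at 24 h, while 9 rose and 1 fell at 48 h, with a median log2 fold change of 0.81 and 0.77. The shares over all genes were 18.2% higher with 15% lower (24 h), then 17.3% with 16.6% (48 h). Of 17 TGF-beta targets, 6 rose and 5 fell at 24 h, while 7 rose and 5 fell at 48 h, with a median of -0.04 and -0.0025, where 33.2% and 34% of all genes passed in either direction. Many of these genes also have other inputs than SMADs, and a difference between the lists was not tested.

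Among the BMP targets, HEY1, a repressor of the hairy family, had 105, 107 and 102 in DMSO and 503, 574 and 501 in entinostat at 24 h, and 102, 99.3 and 92.9 in DMSO and 407, 504 and 432 in entinostat at 48 h. Its entinostat arrays lay far above the DMSO arrays, with log2 fold changes of 2.33 (adjusted p = 3.97e-09 by limma) and 2.18 (adjusted p = 4.03e-09). ID3, a helix-loop-helix protein that keeps basic partners from DNA, had 416, 503 and 466 in DMSO and 1361, 1601 and 1539 in entinostat at 24 h, and 450.3, 279 and 322 in DMSO and 1398, 1907 and 1626 in entinostat at 48 h. It rose by 1.70 and 2.25 without overlap, and ID1, of the same family, by 1.29 and 2.25. MSX2, a homeobox factor of neural crest and limb, rose by 1.91 and 2.05. The targets that fell were DLX5, a homeobox factor, with -0.75 and -0.50, and ATOH8, a basic helix-loop-helix factor, with -1.60 at 24 h, which had -0.20 at 48 h (adjusted p = 0.445 by limma). A dimmer probe set of ATOH8 was lower at both times, with -0.78 at 24 h and -0.21 at 48 h (adjusted p = 0.0202 by limma). DLX5 and ATOH8 were also named after their values had been seen.

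Among the TGF-beta targets, CDKN2B, the cyclin-dependent kinase inhibitor p15, rose by 1.38 and 0.99, and FN1, fibronectin, by 1.27 and 1.39. The other probe set of CDKN2B had 0.18 (adjusted p = 0.0689 by limma) and 0.04 (adjusted p = 0.77). Other bright probe sets of FN1 also rose, while its dimmest had values from -0.09 to 0.07 and did not pass. HMGA2, an architectural chromatin protein, fell with -1.97 and -1.34, VIM, the intermediate filament vimentin, with -0.89 and -1.35, and COL4A1, a chain of basement membrane collagen, with -0.79 and -1.06. Some dimmer probe sets of HMGA2 also fell and others did not pass, and the dimmer one of VIM fell at 24 h alone. SNAI2, a repressor of epithelial genes, fell with -0.45 and -0.91 and was named after its values had been seen, like PMEPA1 as the remaining target that fell. The other targets that rose, likewise named after seeing them, were the matricellular proteins CCN1 (0.89 and 0.83) and CCN2 (0.89 and 0.58), CDKN1A (0.59 and 0.82), SNAI1 (0.28 and 0.37) and, at 48 h, JUNB (0.27).

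**Figure D4:**
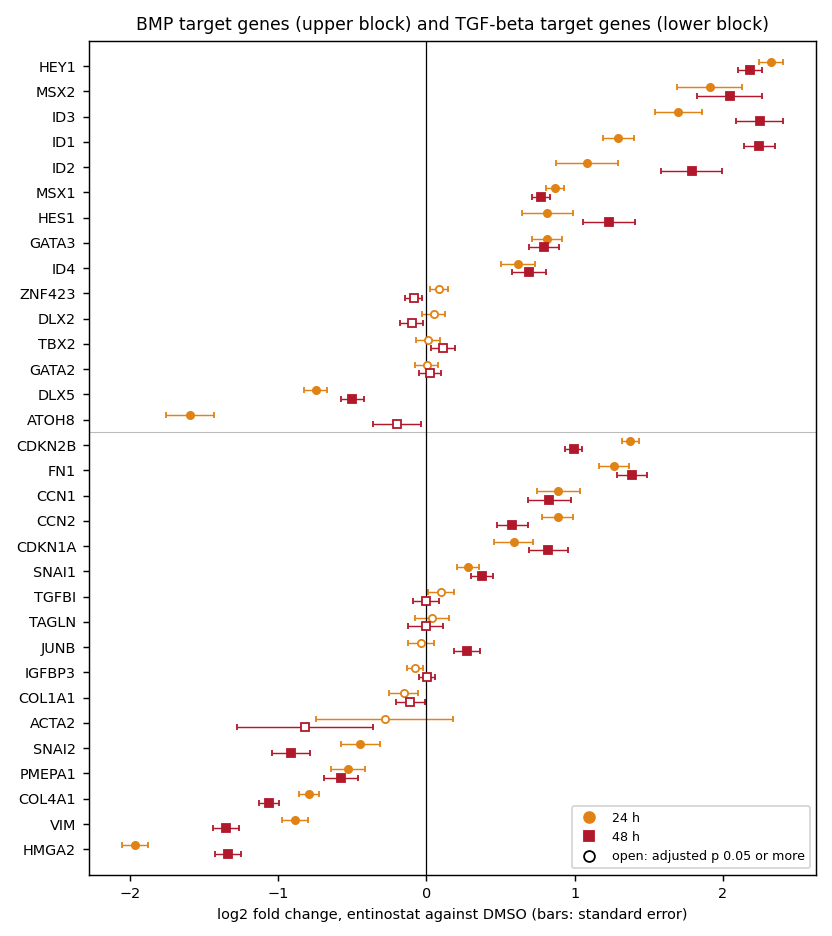
Log2 fold change of entinostat against DMSO (x axis) at 24 h and 48 h for BMP target genes (upper block, 15 genes) and TGF-beta target genes (lower block, 17 genes), without the 42 pathway genes. Points are limma estimates from 3 arrays against 3, bars are standard errors, and filled points passed the adjusted p of 0.05. HEY1, ID3, ID1 and MSX2 lie farthest to the right at 48 h, and HMGA2 farthest to the left at 24 h.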

How the data were processed

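HD-MB03 cells of 4 groups (entinostat or DMSO, 24 h or 48 h, 3 biological replicates each) were measured on Affymetrix U133 Plus 2.0 arrays. The deposited values are linear intensities that the authors, per the labels, made with GCRMA (version not given in the sources used here). The study's methods also name a log2 transformation, but the deposited intensities are linear, and log2 was taken here without a pseudocount. How GCRMA left a background level of this size is not known. Control probe sets (62) were left out, 2 cells were empty, and 54613 probe sets were tested with limma 3.58.1 in R 4.3.3, with all groups in 1 fit. Comparisons were entinostat against DMSO at each time, the interaction of treatment and time, and 48 h against 24 h within each treatment, with Benjamini-Hochberg adjustment over all probe sets and a threshold of 0.05. Probe sets with several symbols (1801) or none (11721) name no gene in the annotation used. The probe set of the highest mean log2 stood for its gene, and the choice of the strongest effect, as in the study's gene set analysis, was an alternative. The procedure was tested on simulated data. The number of arrays limits the precision.

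The pathway genes and lists were chosen with earlier results of these data known. All pathway genes could be named, with the value of every array for those with an absolute log2 fold change of at least 0.8 that passed, those past the interaction and those with a mean log2 of 10 or more. Values by array were added for others on seeing them. From each further list up to 5 genes past the threshold at both times with the largest changes were named. The alternatives were another choice of probe set, a filter at a log2 of 7, no _x_at or _s_at probe sets, 30 subtracted, quantile normalization, centred arrays, separate fits of each time, a replicate block, another variance prior, and leaving out each array.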

Additional observations from a re-analysis of the deposited data

Results flagged for a closer look

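The effect of entinostat differed between 24 h and 48 h, by the test of the interaction of treatment and time in limma, for 4 probe sets of 3 pathway genes. For SMAD9 the interaction was 0.85 on the log2 scale (standard error 0.11, adjusted p = 0.00582) with the brighter probe set and 0.87 (standard error 0.12, adjusted p = 0.00582) with the other. For the only probe set of NOG it was 0.73 (standard error 0.14, adjusted p = 0.0287). For 1 of the 3 probe sets of LTBP3 it was -0.50 (standard error 0.11, adjusted p = 0.0494), from fold changes of 0.09 (adjusted p = 0.491) at 24 h and -0.42 (adjusted p = 0.00127) at 48 h in log2 units. The probe set that represented LTBP3 had -0.14 (adjusted p = 0.687).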

How the results depend on the processing

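The main counts, 15 higher and 8 lower at each time, moved by at most 1.5 times under the alternatives run. With 1 array left out in turn, 12 to 15 pathway genes were higher and 8 to 8 lower at 24 h, and 15 to 17 higher and 6 to 8 lower at 48 h. At 24 h, LTBP2 was lost without any array other than DMSO replicate 2 of 24 h (adjusted p = 0.0591 to 0.192 by limma), GDF15 without DMSO replicate 2 or 3 or entinostat replicate 1 or 3 of 24 h (0.0512 to 0.138), LTBP4 without DMSO replicate 1 or entinostat replicate 2 or 3 of 24 h (0.0501 to 0.0822, with a log2 fold change of 0.22 without DMSO replicate 1 against 0.38), and SKIL without DMSO replicate 1 or entinostat replicate 2 of 24 h (0.067 to 0.071). At 48 h, BMP7 was lost without any DMSO array or entinostat replicate 2 or 3 of 48 h (0.0501 to 0.112), and LTBP3 without DMSO replicate 1 or 2 or any entinostat array of 48 h (0.0544 to 0.118). Calls gained were BMPR2 at 24 h without DMSO replicate 2 of 24 h or entinostat replicate 3 of 48 h, ACVR2A at 24 h without DMSO replicate 3 of 24 h, LTBP2 at 48 h without DMSO replicate 2 or 3 of 24 h, LTBP4 at 48 h without DMSO replicate 1 or 3 of 24 h, INHBE at 48 h without DMSO replicate 1 of 48 h, and INHBA at 48 h without entinostat replicate 1 of 48 h. Over the 9 other settings, 10 to 19 genes rose and 6 to 9 fell at 24 h, while 12 to 17 rose and 6 to 8 fell at 48 h. The interaction passed for 1 to 2 genes with an array left out, for 1 with 30 subtracted and for up to 3 otherwise, when a filter on dim probe sets brought in BMPR1B (adjusted p = 0.0461 by limma). SMAD9 passed in all of these. NOG passed without DMSO replicate 1 or replicate 3 of 24 h, was lost without any other array (0.62 to 0.86 over all 12) and was lost with 30 subtracted (0.82, adjusted p = 0.0754). The change in DMSO between the times passed for 0 to 2 genes with an array left out (NOG and ACVR2A without DMSO replicate 3 of 24 h), and for 0 by limma with 30 subtracted (9 at an unadjusted p under 0.05). With the probe set of the strongest effect, ACVR1B had -0.43 at 24 h (adjusted p = 0.00668), against 0.01, and BMP2 had 0.57 at 48 h, against 0.98, and an interaction of -0.33, which did not pass. With 30 subtracted, BAMBI had 2.12 and 2.03 and TGFBR2 1.04 and 1.39. With the replicate block, 16 were higher and 8 lower at 24 h, 17 and 8 at 48 h, 2 passed the interaction and 1 the change in DMSO. With the group means removed, arrays of the same number correlated by -0.06 to 0.20 over 18 pairs, 4 of them over 0.1. For 4 of the 12 arrays, the array of the same number was the best correlated in every other group. The main fit did not use the numbers as pairs, and whether they are pairs was not tested. The cause of these differences was not tested.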

Other observations

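In the further pathway and target lists, 6 genes outside the 42 passed the interaction of treatment and time by limma, where 1.92% of all genes did. The lists held 18, 14, 20, 27, 17 and 15 such genes, with PMEPA1 among both the intracellular regulators and the TGF-beta targets. They were chosen with earlier results of these data known. FSTL1, a secreted glycoprotein of the follistatin family, had 0.44 at 24 h against -0.10 at 48 h in log2 units (interaction -0.54, adjusted p = 0.00439), and SMURF2 had 0.21 and -0.13 (interaction -0.34, adjusted p = 0.0386). In both genes this was the brightest probe set, and the dimmer ones passed at neither time against DMSO. The rise of CDKN2B was larger at 24 h than at 48 h (interaction -0.38, adjusted p = 0.0388), as was the fall of HMGA2 (interaction 0.63, adjusted p = 0.0379). The fold change of ID1 was larger at 48 h (interaction 0.95, adjusted p = 0.0112), where DMSO had fallen by 0.93 since 24 h (adjusted p = 0.00794) and entinostat differed by 0.02 (adjusted p = 0.948). The brightest probe set of ATOH8, which had fallen at 24 h, did not pass at 48 h (interaction 1.40, adjusted p = 0.0156). A dimmer one was lower at 48 h too (-0.21, adjusted p = 0.0202 by limma). These genes were singled out after their values had been seen.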
